A study of Mus musculus with 26 samples.

Results

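Integrins are surface receptors built from an alpha and a beta chain, and the 9 chains followed here are those of the main integrins of thymocytes and of a few relatives. They were chosen by gene symbol (Itgae, Itgb7, Itgal, Itgb2, Itga4, Itgb1, Itga6, Itgav and Itgb3), and all 9 of the 9 were found among the 46517 symbols of the table. Their levels were read by bulk RNA-seq in CD8 lineage thymocytes of 3 T cell receptor transgenic mouse lines at 3 stages of positive selection, to ask how expression moves with maturation and how it differs between receptors of different self-reactivity.

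TG6 (TG6tg H2b/d on C57/BL6 x B6.C-H2d/bByJ) carries a receptor of low self-reactivity, F5 (F5tg Rag1KO on C57/BL6) one of intermediate and OT-1 (OT-1tg Rag2KO on C57/BL6) one of high self-reactivity. The thymuses were untreated and, per the methods of the study, came from mice 3 to 10 weeks old. Early cells were taken from the CD4+CD8+ gate with CXCR4 and without CCR7 (CXCR4+CCR7-). Late cells were CD4+CD8+ cells that had lost CXCR4 and gained CCR7 (CXCR4-CCR7+), and mature CD8SP cells had also lost CD4. Each of the 9 groups has 3 libraries, other than TG6 late, which has 2. The lines differ in Rag genotype, MHC haplotype and strain cross as well as in the receptor, so these cannot be told apart. In each line the transgenic receptor stands in for a whole repertoire.

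αE pairs with β7 and binds E-cadherin on epithelium. αL and β2 form LFA-1, the receptor for ICAMs that steadies contacts between thymocytes and antigen presenting cells. α4 pairs with β1 or β7 and binds VCAM-1, fibronectin or MAdCAM-1, α6 pairs with β1 in a laminin receptor, and αv pairs with β3 in a receptor for vitronectin and related matrix proteins that can also bind latent TGF-β.

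Values are normalized counts, the read quantities per gene that the authors scaled to make libraries comparable, and library totals lay between 16134786 and 18944173. All 26 libraries held thymocyte markers (the summed level of 10 such genes was 73404 to 134199). The summed levels of other lists were 129 to 340.5 for 6 B cell genes, 490.4 to 1268 for 12 macrophage or dendritic cell genes (mostly Cst3), 36.8 to 1287 for 7 erythroid genes and 1901 to 3681 for 12 epithelial or stromal genes (mostly Pecam1). Cd4 fell and Ccr7 rose as the sort gates ask. Cxcr4 was lower in late than in early libraries of TG6 and F5, while in OT-1 the highest late library (1432) met the lowest early library (1425). It did not stay low in mature cells, which were sorted as CXCR4-: the mature OT-1 libraries (1219 to 3316) overlapped the early ones (1425 to 2898), as did those of F5 (1462 to 4031 against 2638 to 4185), while those of TG6 (1809 to 2067) stayed below early TG6 libraries (4598 to 5527). Within early cells, however, OT-1 libraries already held less Cd4 (7980.0 to 8114) than TG6 libraries (21209 to 22731), and among late cells F5 held more (5160.2 to 10664) than TG6 (4084 to 4089). Ccr7 was 7609, 2698 and 3615 in F5 late replicates 1, 2 and 3. It was 7585 and 8519 in the late TG6 libraries and 7279 to 10976 in those of OT-1. TG6 mature replicate 3 stood apart from replicates 1 and 2, with 23175 against 6219.6 and 7129 for the cell cycle gene Mki67 and 461 against 129 and 77.1 for Cd4. F5 late replicate 2 held 3139 of Mki67 against 127 and 109 in replicates 1 and 3, and the most Cd4 of the late libraries (10664). F5 mature replicate 2 held 17259 of Mki67 against 7016 and 11653. Values without each of these 3 libraries stand beside the results where a call changed or the value moved most. All groups share the estimate of spread, so leaving out a library can change calls between groups that do not hold it. Median Mki67 went from 16909 through 195 to 7129 over the stages in TG6. It went from 31094 through 127 to 11653 in F5 and from 25127 through 1966 to 27701 in OT-1. The part of cell division in the stage and line differences was not tested.

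A gene was called when its adjusted p (limma on log2 of the value plus 1, Benjamini-Hochberg over 16372 genes) was under 0.05. Changes are log2 differences of group means, written with their standard error. From early to late cells 7 of the 9 chains were called in TG6, where 25.4% of all genes were, 5 in F5 (26.7% of all genes) and 7 in OT-1 (26.7% of all genes). From late to mature cells 8 were called in TG6 (22.3% of all genes), 8 in F5 (20.5%) and 6 in OT-1 (24.4%). The median log2 change of the 9 chains from early to late was 0.56 in TG6, 0.51 in F5 and 0.42 in OT-1, against 0.00, 0.04 and 0.02 over all genes tested. The late libraries enter both steps, so a chance high value there would raise the first step and lower the second.

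**Figure D1:**
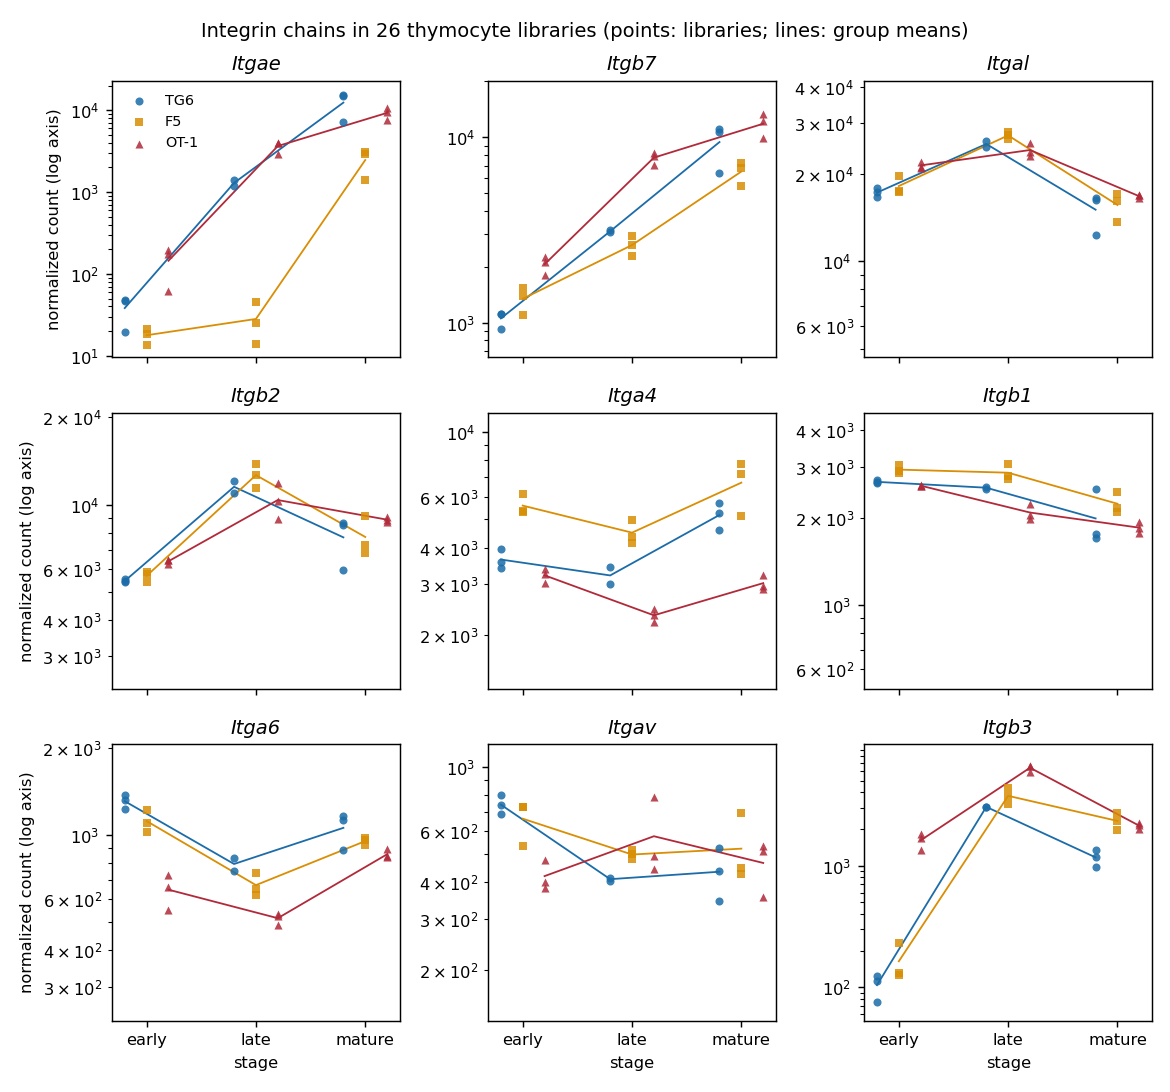
Normalized counts of the 9 integrin chains (vertical log axes, 1 panel per chain) by stage in TG6, F5 and OT-1. Points are libraries and lines join group means. Itgb7 climbs through all stages in each line and Itgae in TG6 and OT-1, whereas Itgae in F5 late cells (14.1 to 44.9) overlaps early cells. The group means of Itgal, Itgb2 and Itgb3 are highest in late cells.

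Itgae (chr11:73090583-73147446, plus strand; positions are from GENCODE on GRCm38) encodes αE and had the largest change between stages of the 9 chains. In TG6 its 3 early libraries read 48.6, 46.8 and 19.4, its 2 late libraries 1410.2 and 1173, and its 3 mature libraries 15118, 14861 and 7112. In OT-1 the values were 174, 62.2 and 198 in early cells, 4019, 3977 and 2934 in late cells and 9508, 10721 and 7570.5 in mature cells. In F5 they were 18.5, 21.3 and 13.6 in early cells, 44.9, 14.1 and 25.5 in late cells and 2894, 1421 and 3063 in mature cells. Thus the stages did not overlap in TG6 or OT-1, whereas in F5 the early and late libraries overlapped and the rise came in mature cells.

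From early to late cells Itgae rose 35.3-fold in TG6 (log2 5.14 ± 0.49, adjusted p = 8e-08) and 27.7-fold in OT-1 (log2 4.79 ± 0.44, adjusted p = 1.3e-07). In F5 the same step was log2 0.51 ± 0.44, adjusted p = 0.44, and 0.91 ± 0.46, adjusted p = 0.16 without F5 late replicate 2, which held the least Itgae of its group. The difference between the steps was itself tested, a comparison chosen after the values were seen: the Itgae step was larger in TG6 than in F5 by 4.63 ± 0.66, adjusted p = 0.00039, and larger in OT-1 than in F5 by 4.29 ± 0.62, adjusted p = 0.00055. Without F5 late replicate 2 these were 4.23 (adjusted p = 0.0013) and 3.88 (0.0013). It did not pass between OT-1 and TG6 (-0.35 ± 0.66, adjusted p = 0.91). Over all genes 2.08% passed the test of TG6 against F5, 1.68% that of OT-1 against F5 and 2.04% that of OT-1 against TG6. Of the 9 chains 1, 2 and 2 did.

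From late to mature cells Itgae rose 88.2-fold in F5 (log2 6.46 ± 0.44, adjusted p = 5e-09), 9.08-fold in TG6 (3.18 ± 0.49, adjusted p = 7.4e-05) and 2.54-fold in OT-1 (1.35 ± 0.44, adjusted p = 0.03). The OT-1 call was lost on leaving out any of OT-1 late replicates 1, 2 and 3 or OT-1 mature replicates 1 and 2 (adjusted p 0.054 to 0.093). Without TG6 mature replicate 3 the TG6 rise was 3.54 ± 0.52, adjusted p = 5.3e-05. The F5 rise was 6.06 without F5 late replicate 2 and 6.82 without F5 mature replicate 2, whose Itgae (1421) was below that of replicates 1 and 3. In bulk libraries more cells with the transcript and more transcript per cell cannot be told apart.

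Between lines, mature F5 cells held less Itgae than mature TG6 cells (log2 -2.33 ± 0.44, adjusted p = 0.0012; -2.69 without TG6 mature replicate 3 and -1.97 without F5 mature replicate 2, adjusted p = 0.00049 and 0.012), and late F5 cells held 48.8-fold less than late TG6 cells (-5.61 ± 0.49, adjusted p = 5.3e-08) and 137-fold less than late OT-1 cells. OT-1 was above TG6 in early cells (1.84 ± 0.44, adjusted p = 0.0036) and in late cells (1.49 ± 0.49, adjusted p = 0.044). The late call was lost under 5 of 9 alternatives (adjusted p 0.05 to 0.069) and on leaving out any late library of either line (0.052 to 0.24) or 3 other libraries (F5 early replicate 1, OT-1 mature replicates 1 and 2). OT-1 was also above F5 in early (2.81 ± 0.44, adjusted p = 0.00012) and mature cells (1.98 ± 0.44, adjusted p = 0.0027, and 1.62, adjusted p = 0.017 without F5 mature replicate 2). In mature cells OT-1 and TG6 overlapped (-0.35 ± 0.44, adjusted p = 0.66).

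Genes of cells that also carry αE were checked beside it. Of 8 NK or gamma-delta markers 5 passed the filter, and 3 of these were called higher from late to mature TG6 cells (22.3% of all genes). In mature cells 4 were lower and 1 higher in F5 than in TG6 (6.64% of all genes; median log2 -2.11), and OT-1 exceeded F5 for 4 (23.3%; median 3.11). OT-1 exceeded TG6 for 3 in early cells (27.8%, median 1.93) and for 3 in late cells (15.5%, median 1.875), and was lower for 0. Klrk1, which encodes the receptor NKG2D, averaged 0, 1.05 and 31.2 in early, late and mature TG6 cells, 0.691, 0 and 1.64 in F5 and 0.781, 2.08 and 18.1 in OT-1. Eomes, a transcription factor of NK and CD8 T cells, averaged 1.44, 5.0 and 36.7 in TG6, 5.88, 8.77 and 4.72 in F5 and 4.60, 6.84 and 76.8 in OT-1. These averages were thus highest in the mature TG6 and OT-1 groups, as was Itgae. Ncr1 was 0 in all 26 libraries, Zbtb16 reached at most 2.95, and the summed level was 1829 to 3780 in TG6, 6543 to 10042 in F5 and 6757 to 12698 in OT-1. Trdc made up most of that sum in each group, and Sox13 averaged 1699 to 2713 over the OT-1 groups but 30.5 to 173 over those of the other lines. In late cells Trdc averaged 2476 in TG6, 7420 in F5 and 8753 in OT-1, and the gamma chain gene Tcrg-C1 27.5, 6.1 and 277. From early to mature cells Tcrg-C1 went from 13.8 to 177 in TG6, 16.1 to 32.2 in F5 and 211 to 294 in OT-1. F5 lacks Rag1 and OT-1 lacks Rag2, so Trdc and Tcrg-C1 in these lines are not read as signs of gamma-delta T cells. The part in these differences of cells that express these markers was not tested. Nor was that of the higher Cd4 of F5 late cells or the lower Ccr7 of F5 late replicates 2 and 3.

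Itgb7 (chr15:102215995-102231944, minus strand) encodes β7, the partner of αE and α4. It read 1113, 1118 and 925 in early, 3149 and 3065 in late and 10685, 11115 and 6448 in mature TG6 cells. In F5 it went from 1536, 1397 and 1096 through 2632, 2925 and 2299.7 to 6862, 5468 and 7258. In OT-1 it went from 2256, 2119 and 1812 through 8216, 7943 and 7120.1 to 12188, 13398 and 9894. No library of a later stage fell to the level of an earlier stage in its line.

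Itgb7 passed the test at each step in each line, by log2 1.57, 0.97 and 1.92 from early to late and by 1.56, 1.31 and 0.60 from late to mature cells in TG6, F5 and OT-1 (1.81 in TG6 without its mature replicate 3). The OT-1 step from late to mature was lost without OT-1 late replicate 3 (adjusted p = 0.058) or OT-1 mature replicate 2 (0.075). OT-1 held more Itgb7 than TG6 in early (0.97 ± 0.17, adjusted p = 0.00027) and late cells (1.32 ± 0.20, adjusted p = 5.1e-05). It held more than F5 at all 3 stages (0.63, 1.57 and 0.86), although the early call was lost under scaling to equal totals (0.051) and without F5 early replicate 3 or OT-1 early replicates 1 or 2 (0.071 to 0.13). In mature cells F5 against TG6 was -0.50 ± 0.17, adjusted p = 0.1. It passed without TG6 mature replicate 3 (−0.75, adjusted p = 0.0023).

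Itgal (chr7:127296260-127335138, plus strand), the αL chain of LFA-1, was highest in late cells. It read 17340.4, 17844 and 16626 in early, 24749 and 26088 in late and 16586, 16333 and 12311 in mature TG6 cells. In F5 the values were 19753, 17425 and 17411, then 27946, 26416 and 27274, then 17021, 13721 and 16208. In OT-1 they were 21177, 22062 and 21071, then 23885, 23166 and 25627, then 16496, 16889 and 16936. All late libraries stood above all early and mature libraries of their line.

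Itgal rose from early to late cells in TG6 (log2 0.56 ± 0.11, adjusted p = 0.00038) and F5 (0.58 ± 0.10, adjusted p = 8.4e-05). The OT-1 step was 0.18 ± 0.10, adjusted p = 0.19. It then fell in all 3 lines, by 0.77 in TG6, 0.80 in F5 and 0.53 in OT-1 on the log2 scale, and the TG6 value was −0.63 without TG6 mature replicate 3. OT-1 exceeded TG6 in early cells (0.31 ± 0.10, adjusted p = 0.018), a call lost under scaling to equal totals (adjusted p = 0.13), under quantile normalization (0.41), and without OT-1 early replicate 2 (0.065) or TG6 early replicate 3 (0.061). No other pair of lines passed for Itgal, but OT-1 against F5 in early cells did without TG6 mature replicate 3 (0.24, adjusted p = 0.023), as did the difference of their early to late steps (−0.41, 0.029). The early to late step of OT-1 against that of TG6 passed under quantile normalization (−0.52, 0.027) and in a fit of the compared groups alone (−0.38, 0.028).

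Itgb2 (chr10:77530252-77565708, plus strand), the β2 chain of LFA-1, had a similar course. The TG6 values were 5407, 5520.0 and 5431 in early, 11002 and 12049.5 in late and 8491, 8675 and 5966 in mature cells. In F5 they were 5869, 5778 and 5387, 11443, 12647 and 13847 and 7241, 6820.3 and 9145 in that order of stages. In OT-1 they were 6449.6, 6222 and 6460.4, 10324, 8920.3 and 11877 and 8840.2, 8712 and 9073. Late and mature libraries overlapped in OT-1 and in no other line.

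From early to late cells Itgb2 rose in all 3 lines (log2 1.08 in TG6, 1.15 in F5 and 0.69 in OT-1, adjusted p at most 0.00029). It then fell in TG6 (-0.60 ± 0.14, adjusted p = 0.0036, and -0.42, adjusted p = 0.019 without TG6 mature replicate 3) and F5 (-0.72 ± 0.13, adjusted p = 0.00025). The OT-1 value was -0.22 ± 0.13, adjusted p = 0.22. The TG6 fall was lost without TG6 late replicate 2 (adjusted p = 0.061) and in a fit of TG6 late and mature libraries alone (0.16), as was that of Itgal in the latter (0.078). No pair of lines passed for Itgb2 at any stage, with differences between -0.29 and 0.23. OT-1 against F5 in late cells passed without OT-1 late replicate 3 (−0.39, adjusted p = 0.042) or TG6 mature replicate 3 (−0.29, 0.032), and OT-1 against TG6 in early cells passed in a fit of those groups alone (0.23, 0.015).

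Itga4 (chr2:79255426-79333123, plus strand) encodes α4, the chain shared by α4β1 and α4β7. It read 3952, 3387 and 3568 in early, 3420.1 and 2988 in late and 5248, 5704 and 4596 in mature TG6 cells. In F5 it read 5288, 5328 and 6129, 4159, 4355 and 4992 and 7180.5, 5128 and 7788. In OT-1 it read 3369.9, 3021 and 3231, 2453, 2215 and 2333 and 2867, 2957 and 3219. The F5 libraries lay above all OT-1 libraries at each stage.

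OT-1 held less Itga4 than F5 in early (-0.80 ± 0.12, adjusted p = 9.7e-05), late (-0.95 ± 0.12, adjusted p = 6.3e-06) and mature cells (-1.13 ± 0.12, adjusted p = 1.1e-06), and none of these calls was lost under any alternative or left-out library. It also held less than TG6 in mature cells (-0.78 ± 0.12, adjusted p = 0.00021, and -0.86 without TG6 mature replicate 3) and in late cells (-0.46 ± 0.14, adjusted p = 0.028), the latter lost without either TG6 late library or OT-1 late replicate 2 or 3 (adjusted p 0.055 to 0.25). F5 exceeded TG6 in early cells (0.62 ± 0.12, adjusted p = 0.0027). In late cells that difference (0.49 ± 0.14, adjusted p = 0.039) was lost under 5 alternatives (adjusted p 0.064 to 0.16) and without either TG6 late library or F5 late replicate 2 or 3 (0.067 to 0.38). In mature cells F5 against TG6 passed without F5 mature replicate 2 (0.54, adjusted p = 0.0028).

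Across stages Itga4 fell from early to late cells in OT-1 (-0.46 ± 0.12, adjusted p = 0.0078). In TG6 and F5 the step was -0.18 and -0.31 (adjusted p = 0.38 and 0.065). That of F5 passed with the replicate block (0.02) and under quantile normalization (-0.42, 0.02). It also passed without F5 late replicate 3 (0.046), F5 mature replicate 2 (0.019), F5 mature replicate 3 (0.049) or TG6 mature replicate 3 (0.049). Itga4 rose from late to mature cells in TG6 (0.69 ± 0.14, adjusted p = 0.00088), F5 (0.56 ± 0.12, adjusted p = 0.0022) and OT-1 (0.37 ± 0.12, adjusted p = 0.033). The rise was lost in a fit of the compared groups alone in TG6 (adjusted p = 0.06) and F5 (0.11). In OT-1 it was lost under 4 other alternatives (0.052 to 0.093) and without OT-1 late replicate 2 or 3 or OT-1 mature replicate 2 or 3 (0.063 to 0.12).

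The windows before the starts of Itgb7 and Itga4 are shown because the products of these genes form α4β7 and the genes differed between OT-1 and F5 in opposite directions. They are the 250 bases upstream, from RefSeq on GRCm38.p6, which held 4 of the 9 chains (the others were Itgb1 and Itgav). That of Itgb7 is chr15:102231936-102232185 on the minus strand, and that of Itga4 is chr2:79255176-79255425 on the plus strand. Capitals mark the RUNX letters TGTGGT or ACCACA and the E-box CAGCTG, searched on both strands.
Itgb7: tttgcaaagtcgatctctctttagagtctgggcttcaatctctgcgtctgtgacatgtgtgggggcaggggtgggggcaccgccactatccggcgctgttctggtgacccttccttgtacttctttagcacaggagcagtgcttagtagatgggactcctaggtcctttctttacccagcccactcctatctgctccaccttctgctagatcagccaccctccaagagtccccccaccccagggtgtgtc
Itga4: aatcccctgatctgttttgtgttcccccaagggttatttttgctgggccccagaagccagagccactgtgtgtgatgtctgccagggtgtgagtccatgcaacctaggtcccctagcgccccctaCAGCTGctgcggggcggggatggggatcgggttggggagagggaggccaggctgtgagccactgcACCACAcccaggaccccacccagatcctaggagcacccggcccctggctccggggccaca
The Itga4 window held the RUNX letters 60 bases and the E-box 125 bases before the start, and the windows of Itgb7, Itgb1 and Itgav held neither. Of 32536 such windows 14.0% held the RUNX letters and 13.1% the E-box letters.

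Itgb1 (chr8:128685654-128733200, plus strand), the β1 chain that pairs with α4 and α6, varied less. It read 2635, 2689.6 and 2648 in early, 2560.0 and 2514 in late and 1752, 1698 and 2513 in mature TG6 cells. In F5 it read 3048, 2895 and 2845, 3070.2, 2793 and 2711 and 2156, 2446 and 2097. In OT-1 it read 2571, 2589.9 and 2573, 1977, 2039.5 and 2231 and 1842, 1772 and 1926. Mature libraries were the lowest in each line, but TG6 mature replicate 3 stood beside the late libraries.

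It fell from late to mature cells in TG6 (-0.38 ± 0.12, adjusted p = 0.026, and -0.56 ± 0.08, adjusted p = 7.4e-05 without TG6 mature replicate 3) and F5 (-0.36 ± 0.11, adjusted p = 0.019) and from early to late cells in OT-1 (-0.31 ± 0.11, adjusted p = 0.034). Each of these was lost on leaving out some single libraries: TG6 late replicate 1 or 2 or TG6 mature replicate 1 or 2 (adjusted p 0.097 to 0.14), F5 late replicate 1 or F5 mature replicate 1 or 3 (0.056 to 0.076), and any OT-1 early library or OT-1 late replicate 1 or 2 (0.073 to 0.12). The TG6 and F5 falls were also lost in a fit of the compared groups alone (0.31 and 0.078), that of F5 under quantile normalization (0.062), and that of OT-1 with no filter or no trend (0.056 and 0.052). OT-1 held less Itgb1 than F5 in late cells (-0.46 ± 0.11, adjusted p = 0.003). Without TG6 mature replicate 3, F5 also exceeded TG6 in mature cells (0.37, adjusted p = 0.0026, against 0.19, adjusted p = 0.38, with it), and OT-1 was lower than F5 in mature cells (−0.27, adjusted p = 0.0051) and than TG6 in late cells (−0.29, 0.011).

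Itga6 (chr2:71745616-71858416, plus strand) encodes α6, the laminin binding partner of β1, and was lowest in late cells. It read 1327, 1231 and 1372 in early, 754 and 836 in late and 1161, 1129.7 and 888 in mature TG6 cells. In F5 it read 1103, 1027 and 1226, 654, 624 and 739 and 978, 959 and 924. In OT-1 it read 731, 550.5 and 664, 527, 536 and 488 and 844, 896 and 837. Early OT-1 libraries lay below all early libraries of the other lines.

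OT-1 held less Itga6 than TG6 in early (-1.02 ± 0.11, adjusted p = 5.8e-07) and late cells (-0.62 ± 0.13, adjusted p = 0.0015), and less than F5 in early (-0.79 ± 0.11, adjusted p = 4e-05) and late cells (-0.38 ± 0.11, adjusted p = 0.018). The last call was lost without F5 late replicate 3 or OT-1 late replicate 3 (adjusted p = 0.1 and 0.067) and in a fit of those groups alone (0.053). In mature cells the lines did not pass (-0.29 for OT-1 against TG6, adjusted p = 0.1), although without TG6 mature replicate 3 that pair did (−0.42, adjusted p = 0.0076).

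From early to late cells Itga6 fell in TG6 (-0.72 ± 0.13, adjusted p = 0.00015), F5 (-0.73 ± 0.11, adjusted p = 4e-05) and OT-1 (-0.32 ± 0.11, adjusted p = 0.04), and from late to mature cells it rose by 0.41, 0.51 and 0.73 (adjusted p = 0.023, 0.0023 and 7.9e-05), the TG6 rise being 0.53 without TG6 mature replicate 3. The OT-1 fall was lost under 4 of 9 alternatives (adjusted p 0.05 to 0.19) and without any of OT-1 early replicates 1 and 3 and OT-1 late replicates 1, 2 and 3 (0.063 to 0.2). The TG6 rise was lost under both other scalings (0.12 and 0.14), in a fit of the compared groups alone (0.21), and without either TG6 late library or TG6 mature replicate 1 or 2 (0.059 to 0.2).

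Itgb3 (chr11:104608000-104670476, plus strand), the β3 chain, had the sharpest peak in late cells. It read 112, 124 and 75.5 in early, 3050.4 and 3031 in late and 1174, 1347 and 982 in mature TG6 cells. In F5 it read 233, 131 and 125, 4318, 3206 and 3723 and 2697, 1958 and 2339. In OT-1 it read 1823, 1672 and 1347, 6633, 5905 and 6620.1 and 2168, 1985 and 2227. The early OT-1 libraries stood far above the other early libraries and the lowest of them met the highest TG6 mature library.

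Itgb3 rose 29.6-fold from early to late cells in TG6 (log2 4.89 ± 0.23, adjusted p = 1.7e-12), 23.6-fold in F5 (4.56 ± 0.20, adjusted p = 2.1e-12) and 3.98-fold in OT-1 (1.99 ± 0.20, adjusted p = 4.9e-07). The OT-1 step was smaller than that of TG6 by -2.90 ± 0.30, adjusted p = 1.6e-05, and smaller than that of F5 by -2.57 ± 0.29, adjusted p = 3.7e-05. In early cells OT-1 exceeded TG6 15.6-fold (3.97 ± 0.20, adjusted p = 4.1e-12) and F5 10.2-fold (3.35 ± 0.20, adjusted p = 1.6e-10). Ccr7, which the sort uses and which rises with maturation, was 648 to 863 in those OT-1 libraries and 112 to 199 in TG6 early libraries, and the part of this in the Itgb3 difference was not tested. Of the 12 macrophage or dendritic cell genes, 7 were also higher and 1 lower in early OT-1 than in early TG6 cells (27.8% of all genes were called), with a median log2 difference of 2.23, and 7 were higher and 1 lower than in early F5 cells (12.7% of all genes), with a median of 2.82. Csf1r, a receptor of macrophages, averaged 27.0 in early OT-1 cells against 3.08 in TG6 and 1.85 in F5, and C1qa 20.0 against 2.61 and 0.968. In late cells 6 of the 12 were higher in OT-1 than in F5 (24.0% of all genes; median 1.93) and 3 higher than in TG6 (15.5%; median 0.82), and 0 were lower in either. The part of such cells in the early and late OT-1 differences of Itgb3 and Itgae was not tested.

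In late cells OT-1 still exceeded TG6 (1.07 ± 0.23, adjusted p = 0.0023) and F5 (0.78 ± 0.20, adjusted p = 0.0074). From late to mature cells Itgb3 fell in TG6 (-1.39 ± 0.23, adjusted p = 0.00013, and -1.27 without TG6 mature replicate 3), F5 (-0.69 ± 0.20, adjusted p = 0.019) and OT-1 (-1.59 ± 0.20, adjusted p = 1.3e-05). The F5 fall was lost without F5 late replicate 1 or 3 or F5 mature replicate 2 (adjusted p 0.052 to 0.1) and in a fit of the compared groups alone (0.057). In mature cells TG6 was below OT-1 (0.87 ± 0.20, adjusted p = 0.008) and below F5 (1.00 ± 0.20, adjusted p = 0.0025), by 0.76 (adjusted p = 0.016) and 0.88 (0.014) without TG6 mature replicate 3. β3 also marks platelets, and of 8 platelet or megakaryocyte markers Pf4 and Ppbp reached at most 1.56 and 1.01, and the summed level was 44.5 to 163. The 2 markers that passed the filter, Itga2b and Gp1ba, were both higher in late than in early F5 cells (26.7% of all genes were called; median log2 1.06), neither was called over that step in TG6 or OT-1, and 1 was lower in mature than in late OT-1 cells (24.4% of all genes). Itga2b, which encodes αIIb, the other partner of β3, averaged 53.3, 53.7 and 39.5 in early, late and mature TG6 cells, 30.3, 67.7 and 75.9 in F5 and 39.2, 72.2 and 27.7 in OT-1. The part of platelets in the Itgb3 values was not tested.

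Itgav (chr2:83724397-83806916, plus strand) encodes αv, the partner of β3, and did not follow it. It read 737, 798 and 689 in early, 416 and 405 in late and 344, 525 and 437 in mature TG6 cells. In F5 it read 729, 729 and 532, 481, 500.1 and 516 and 693, 449 and 427. In OT-1 it read 399.6, 382 and 479, 790.0, 446 and 495 and 532, 356 and 512. Early TG6 and early OT-1 libraries did not overlap whereas most other groups did, and OT-1 late replicate 1 was far above replicates 2 and 3.

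Itgav fell from early to late cells in TG6 (-0.85 ± 0.24, adjusted p = 0.011), a call lost without either TG6 late library (adjusted p = 0.06 and 0.075). The same step was -0.40 in F5 and 0.42 in OT-1 (adjusted p = 0.19 and 0.16). In early cells OT-1 was below TG6 (-0.82 ± 0.21, adjusted p = 0.0063) and F5 (-0.65 ± 0.21, adjusted p = 0.049), the latter lost under 3 alternatives and on leaving out any of 15 libraries (adjusted p 0.051 to 0.17), among them OT-1 early replicates 1 and 2 and F5 early replicates 1 and 2. No late to mature step passed for Itgav.

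**Figure D2:**
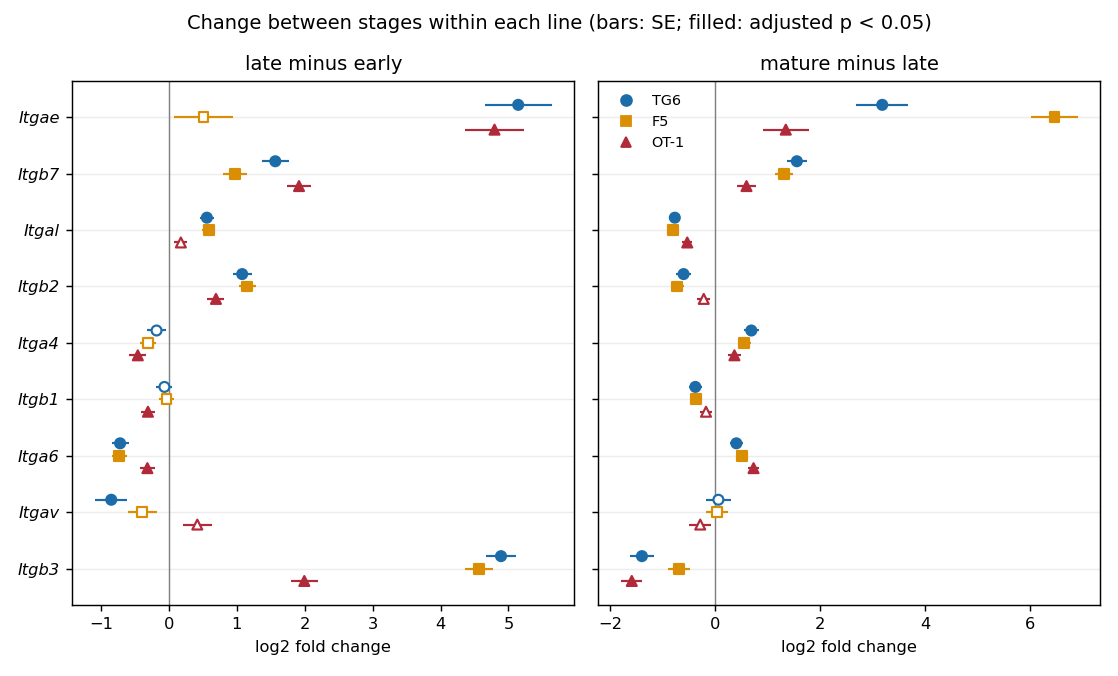
Log2 fold change of each integrin chain between stages in TG6, F5 and OT-1, with bars of 1 standard error and filled symbols for adjusted p under 0.05; the panels have their own horizontal scales. Itgae moves by 5.14 and 4.79 from early to late cells in TG6 and OT-1 and by 0.51 in F5, whereas from late to mature cells the F5 change is the largest.

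Counted over all chains, OT-1 differed from TG6 in 6 of 9 in early cells (27.8% of all genes), 5 in late (15.5%) and 2 in mature cells (9.74%). OT-1 differed from F5 in 6 chains in early (12.7%), 6 in late (24.0%) and 3 in mature cells (23.3%). F5 differed from TG6 in 1 chain in early (6.46%), 2 in late (4.97%) and 2 in mature cells (6.64%). These comparisons share libraries, and with 9 chains a count of 1 to 3 is not read as a result about the group. Itga4 in early, Itgae and Itga4 in late, and Itgae and Itgb3 in mature cells made up the F5 against TG6 counts.

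**Figure D3:**
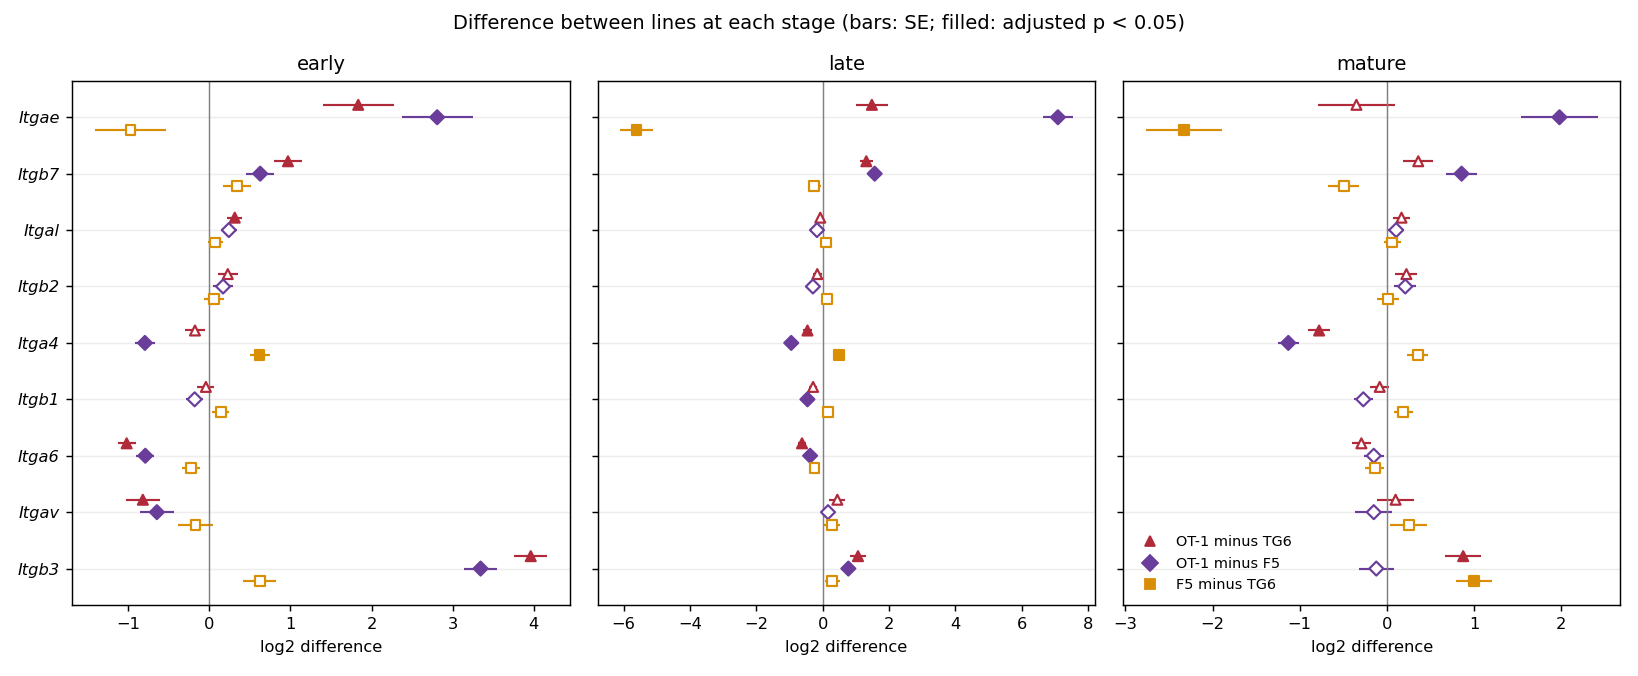
Log2 difference of each integrin chain between lines in early, late and mature cells, with bars of 1 standard error and filled symbols for adjusted p under 0.05; the panels have their own horizontal scales. OT-1 stands above both other lines for Itgb3 in early cells (3.97 and 3.35), F5 stands below both for Itgae in late cells, and Itga4 is lower in OT-1 than in F5 at each stage.

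Whether the whole course from early to mature cells differed between OT-1 and TG6 was tested as the difference of the changes. It passed for 3 of 9 chains (4.20% of all genes): Itgb3 (-3.09 ± 0.29, adjusted p = 1.5e-06), Itga6 (0.73 ± 0.16, adjusted p = 0.0079, but 0.059 in a fit of the compared groups alone) and Itgae (-2.19 ± 0.62, adjusted p = 0.049). By group means Itgb3 went from 1614 to 2127 between early and mature OT-1 cells and from 104 to 1168 in TG6. Itga6 went from 648 to 859 in OT-1 and from 1309.9 to 1059.7 in TG6. The Itgae call was lost under 5 of 9 alternatives (adjusted p 0.052 to 0.11) and on leaving out any library (0.054 to 0.15) other than TG6 early replicate 1, TG6 mature replicate 3, F5 late replicates 1 and 2, F5 mature replicate 2 and OT-1 early replicate 2. Without TG6 mature replicate 3, 5 passed, Itga4 (0.02) and Itgb7 (0.011) being added, and the other values were -3.21 for Itgb3, 0.61 for Itga6 and -2.54 for Itgae. Without F5 mature replicate 2 Itga4 was added (-0.60, adjusted p = 0.011).

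To compare chains with each other, values were divided by the length of the longest annotated transcript in kb. By this measure Itgal was the most abundant chain of early TG6 cells (3307 per kb) and Itgae the least (9.95 per kb), while in mature TG6 cells Itgb7 (3509.6 per kb) and Itgae (3216 per kb) were above Itgal (2887 per kb) by group means. In TG6 mature replicate 3, however, Itgae (1850 per kb) was below Itgal (2358 per kb). By group means of mature OT-1 cells Itgb7 (4408 per kb) was above and Itgae (2410 per kb) below Itgal (3212 per kb). In mature F5 cells Itgb7 (2434 per kb) and Itgae (640 per kb) were both below Itgal (2997 per kb). The median Itgae to Itgb7 ratio per kb rose from 0.0292 through 0.29 to 0.933 in TG6. It went from 0.0538 through 0.341 to 0.544 in OT-1 and from 0.00867 through 0.00774 to 0.294 in F5. Thus β7 transcript was in excess of αE transcript in all groups by this measure.

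The ratio of Itga4 to Itgb7 moved the other way, from 0.975 to 0.141 in TG6, 1.05 to 0.287 in F5 and 0.41 to 0.0646 in OT-1 between early and mature cells. The Itgal to Itgb2 ratio, that of the LFA-1 chains, was 1.82 to 1.87 in early cells and 1.06 to 1.14 in mature cells over the lines. The ratio of Itgav to Itgb3 was 5.4 in early TG6 and 3.48 in early F5 cells but 0.188 in early OT-1 cells, and it was 0.062 to 0.114 in late cells of the 3 lines. These ratios are descriptions and carry no test.

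**Figure D4:**
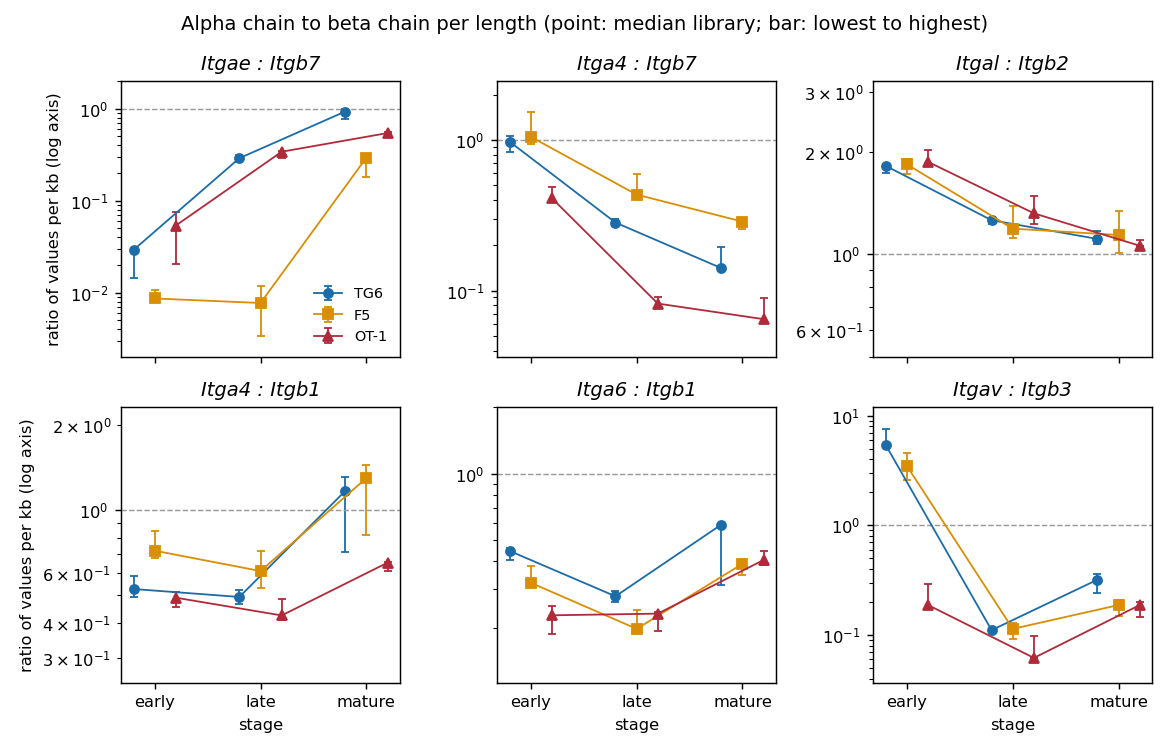
Ratio of alpha to beta chain transcript, each per kb of its longest transcript (vertical log axes with their own ranges), by stage in TG6, F5 and OT-1. Points are the median library, bars run from the lowest to the highest library, and the dashed line is a ratio of 1; Itgav to Itgb3 drops from above 1 to near 0.11 between early and late cells in TG6 and F5.

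Among 11016 genes with a mean of at least 50, those whose log2 values followed each chain most closely over the 26 libraries were found by Pearson correlation, a description in which the points share groups of 3 lines and 3 stages. Itgae was followed by Rarg (0.969), a retinoic acid receptor, Il2rb (0.96), a chain of the IL-2 and IL-15 receptors, and 9930111J21Rik1 (0.958). Itgb7 was followed by the kinase gene Stk10 (0.987), Ms4a4b (0.978) and Gramd4 (0.976). Itgb3 was followed by Cd53 (0.961), which encodes a tetraspanin, Mllt6 (0.947) and Gimap4 (0.947). Itga6 was followed by the genes of both CD8 chains, Cd8a (0.889) and Cd8b1 (0.888), and by Msh5 (0.854).

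For LFA-1 the closest genes were Rfx7 (0.913), Mapk11 (0.912) and Rtf1 (0.909) for Itgal, and Pglyrp2 (0.926), Rin3 (0.924) and Micall1 (0.91) for Itgb2. For Itgb1 they included Pafah1b3 (0.923) and Qser1 (0.922). Itga4 had looser neighbours in Gm14085 (0.819), Snx30 (0.816) and Mgat4b (0.774), and Itgav the loosest in Txlng (0.719), Smoc1 (0.659) and Cacna1e (0.648). Between members the values were 0.925 for Itgae and Itgb7, 0.648 for Itgal and Itgb2, 0.809 for Itgb2 and Itgb3, and −0.511 for Itgav and Itgb3. The most negative were -0.887 for Itgae and Itgb1, -0.874 for Itgb7 and Itgb1, and -0.801 for Itga6 and Itgb3.

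Of 18 other integrin chains 13 were measured above the filter, and 1 to 3 were called higher and 1 to 2 lower from early to late cells in any line, where 25.4% to 26.7% of all genes were called. Itga5, the α5 chain of the fibronectin receptor, averaged 352, 682 and 276 in early, late and mature TG6 cells, rose by 0.95 ± 0.12, adjusted p = 3.8e-06 and then fell by 1.30. It was lower in late OT-1 than in late F5 cells (-1.45 ± 0.11, adjusted p = 2.9e-09). Itgam, the αM chain of myeloid cells, fell from 219.5 to 57 in TG6 between early and late cells (-1.92 ± 0.43, adjusted p = 0.0016). Itga9, which encodes α9, was lower in late OT-1 than late F5 cells (-2.53 ± 0.65, adjusted p = 0.0063).

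Of 40 genes of integrin activation and adaptors, 37 were measured, and 10, 16 and 11 were higher and 1, 1 and 4 lower in late than in early cells of TG6, F5 and OT-1, where 25.4%, 26.7% and 26.7% of all genes were called in either direction. From late to mature cells 3, 2 and 0 were higher and 5, 8 and 9 lower (22.3%, 20.5% and 24.4% of all genes). OT-1 exceeded TG6 for 12 of them in early, 8 in late and 8 in mature cells and was lower for 4, 2 and 2 (27.8%, 15.5% and 9.74% of all genes). Against F5, OT-1 was higher for 7, 6 and 7 and lower for 2, 7 and 5 in early, late and mature cells (12.7%, 24.0% and 23.3% of all genes). Rap1gap2, a GTPase activating gene for Rap1, averaged 647 in early OT-1 cells and 39.2 in early F5 cells (4.02 ± 0.36, adjusted p = 9.1e-08), and Ptk2, which encodes focal adhesion kinase, 292 and 109 (1.41 ± 0.21, adjusted p = 5.2e-05). Vcl, which encodes vinculin, fell from 103 to 16.9 between early and late F5 cells (-2.59 ± 0.41, adjusted p = 5e-05). Tgfb1i1, the gene of the adaptor Hic-5, was lower in late OT-1 than late F5 cells (-1.70 ± 0.35, adjusted p = 0.001).

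Of 13 ligands and counter-receptors 7 were measured, and 3, 1 and 1 were higher and 1, 3 and 0 lower in late than in early cells of TG6, F5 and OT-1 (25.4%, 26.7% and 26.7% of all genes). Thymocytes themselves carry ligands of LFA-1, and these moved in opposite directions in TG6: Icam1 rose from 287 to 892 (1.63 ± 0.20, adjusted p = 1.7e-06) while Icam2 fell from 1362 to 579 (-1.23 ± 0.14, adjusted p = 1.1e-06).

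TGF-β signalling is known to support αE expression, and 13 of 13 genes of its receptors, Smads and partners were measured. From early to late cells 6, 7 and 6 rose and 0, 1 and 1 fell in TG6, F5 and OT-1, where 25.4%, 26.7% and 26.7% of all genes were called in either direction. Runx3, a transcription factor of the CD8 lineage, rose in TG6 from 636 to 4893 (3.01 ± 0.35, adjusted p = 9.9e-07), and in F5 from 786 to 3814 (2.32 ± 0.31, adjusted p = 7.9e-06), where Itgae read at most 44.9. Tgfbr2, a receptor chain, rose by 1.31 ± 0.18, adjusted p = 8.9e-06 in TG6 and 1.07 ± 0.16, adjusted p = 3.3e-05 in F5. Smad7, an inhibitory Smad, rose in F5 by 4.10 ± 0.57, adjusted p = 1.4e-05 and in TG6 by 4.88 ± 0.64, adjusted p = 5.1e-06, and Skil, a corepressor of Smads, rose by 1.29 ± 0.25, adjusted p = 6e-04 in OT-1, 1.26 (0.0018) in TG6 and 0.69 (0.046) in F5. Runx3, Tgfbr2 and Smad7 also rose over this step in OT-1, by 1.61, 1.09 and 2.41 (adjusted p = 0.00052, 4e-05 and 0.0032). Between late F5 and late TG6 cells Runx3 differed by -0.36 ± 0.35, adjusted p = 0.71, Tgfbr2 by -0.19 ± 0.18, adjusted p = 0.7, Smad7 by -0.46 ± 0.64, adjusted p = 0.82 and Skil by -0.52 ± 0.28, adjusted p = 0.39. The late F5 libraries held 236, 269 and 1408 of Smad7, against 557 and 681 in late TG6 libraries. Between late OT-1 and late F5 cells 4 of the 13 were higher and 1 lower in OT-1 (24.0% of all genes). Late OT-1 cells held more Tgfbr2 (0.74 ± 0.16, adjusted p = 0.0019), Smad7 (2.37 ± 0.57, adjusted p = 0.0042) and Skil (1.06 ± 0.25, adjusted p = 0.0035) than late F5 cells, while Runx3 differed by 0.17 ± 0.31, adjusted p = 0.76. The part of TGF-β signalling and of Runx3 in the Itgae differences was not tested.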

How the data were processed

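The table holds 46517 mouse gene symbols in 26 libraries. Per the labels and the methods of the study, reads were trimmed with Trimmomatic 0.32, mapped to mm10 with Bowtie2 2.3.2 and quantified with RSEM 1.2.31. The authors then scaled the estimates by the median of ratios in DESeq2 (version not given in the sources used here). The deposited values are thus a normalized signal, not whole reads (42.4% to 44.2% of values above 0 in a library were whole multiples of its smallest step within 0.01), so no count model was used. Samples were grouped by the genotype and sort population in the labels, and 0 columns were left without a sample.

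Values were taken as log2(value + 1). Genes with at least 10 in at least 2 libraries (16372) were fitted with limma 3.58.1 in R 4.3.3, with 1 mean per group over all 26 libraries, 17 residual degrees of freedom and an intensity trend, and p-values were adjusted by Benjamini-Hochberg within each comparison. The methods of the study compared lines pairwise at each stage. The code was tested on simulated data. The fold change of low genes is understated on this scale.

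The members and gene lists were chosen with earlier results of these data known, and so support nothing independently. Named genes are all 9 members, up to 4 genes for each list other than the cell type markers with the largest called change between stages or lines and a group mean of at least 100, and the 3 genes most correlated with each member. The cell type markers named singly, Mki67, the late comparisons of Tgfbr2, Smad7, Skil and Runx3, and the tests of the early to late step between lines were chosen after the values were seen. Libraries of a group correlated at 0.95 to 0.978, with 0 identical pairs. Replicate numbers come from the labels, which do not say whether a number marks the same mouse at each stage. Deviations of same-numbered libraries from their group means correlated at 0.023 to 0.274 in TG6 (7 pairs), 0.106 to 0.34 in F5 (9 pairs) and 0.0189 to 0.178 in OT-1 (9 pairs). Those of libraries with other numbers correlated at -0.228 to 0.0921, -0.278 to 0.049 and -0.143 to 0.0513. Every same-numbered pair was above 0.1 in F5 but only 2 of 7 in TG6 and 5 of 9 in OT-1, so the hint of pairs was clearest in F5. The main fit took no line as paired, so all its adjusted p-values are unpaired. Gene positions and transcript lengths are from GENCODE on GRCm38, and 4 of 9 members matched the RefSeq promoter table. The alternatives tried were a pseudocount of 0.1 or 5, all genes unfiltered, genes averaging 50 or more, scaling to equal totals, quantile normalization, fitting the compared groups alone, no trend, the replicate block, and leaving out each library. The block was line and number for stage steps and for differences of steps. For comparisons between lines it was the number alone. Values of some items are not reported here.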

Additional observations from a re-analysis of the deposited data

Results flagged for a closer look

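These differences between lines passed the test of the difference itself (limma, adjusted p under 0.05) and are given as values. From early to mature cells, the change in OT-1 minus that in TG6 was −2.19 for Itgae, 0.73 for Itga6 and −3.09 for Itgb3 on the log2 scale. The Itgae call (adjusted p = 0.049) held under only 4 of 9 alternatives and 6 of 26 left-out libraries. That of Itga6 was lost in a fit of the compared groups alone (0.059). The tests of the step from early to late cells were chosen after the values were seen. The Itgae change over it was larger by 4.63 in TG6 than in F5 and by 4.29 in OT-1 than in F5. The Itgb3 change over that step in OT-1 differed by −2.57 from F5 and by −2.90 from TG6. The Itgav change over that step was larger by 1.27 in OT-1 than in TG6 (adjusted p = 0.039), where OT-1 late replicate 1 (790.0) stood above the other OT-1 late libraries (446 and 495). That call was lost without this library (adjusted p = 0.11), without 7 other libraries (TG6 early replicates 1, 2 and 3, TG6 late replicates 1 and 2, OT-1 early replicates 1 and 2; 0.065 to 0.16), with no filter (0.056) and with no trend (0.061).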

How the results depend on the processing

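Over 9 chains and 19 comparisons there were 171 results, of which 82 were called. None was called in opposite directions under any alternative, and 58 of the 82 were called under every alternative and without any single library, while 17 results that were not called changed sign under some alternative. Fitting the compared groups alone gave 14 calls from late to mature cells against 22 (with 2 or 3 libraries a group, fewer libraries enter each fit). The number of chains whose course from early to mature cells differed between OT-1 and TG6 was 3, rose to 6 with the replicate number as a block, adding Itga4 (adjusted p = 0.013), Itgav (0.036) and Itgb7 (0.049), and ranged from 2 to 5 over left-out libraries (5 without TG6 mature replicate 3). Besides the changed calls given with the results, the block added Itgb3 for F5 against TG6 in early cells (0.62, adjusted p = 0.04), Itgb7 for F5 against TG6 in mature cells (−0.50, 0.027) and, for the early to late step of OT-1 against F5, Itgb7 (0.95, 0.0065) and Itgal (−0.41, 0.029). No label links numbers across lines, so the calls that the block added for F5 against TG6 rest on no known pairing. Between the stages of a line, 11 of 14 comparisons in TG6, 18 of 18 in F5 and 17 of 18 in OT-1 had a library correlate best with its own number, a hint from the data and not from the design. In the main fit Itgb7 did not pass for the early to late step of OT-1 against F5 (0.945, adjusted p = 0.054). It also passed without F5 late replicate 2 (1.03, adjusted p = 0.042), F5 mature replicate 2 (0.95, 0.047) or TG6 mature replicate 3 (0.95, 0.0083). The same held without F5 early replicate 3 (0.039) or TG6 mature replicate 2 (0.045). Genes averaging 50 or more (0.043), the compared groups alone (0.041) and a pseudocount of 5 (0.05) called it too. Scaling to equal totals took the median of all genes to −0.11 for TG6 mature minus late, −0.11 and −0.13 for OT-1 minus TG6 in early and late cells and −0.13 for OT-1 minus F5 in mature cells. Under it Itgb1 in OT-1 against F5 in mature cells passed (−0.42, adjusted p = 0.0044, against −0.27 and 0.068) and so did Itgb1 in OT-1 against TG6 in late cells (−0.42, 0.011) and Itga6 in OT-1 against TG6 in mature cells (−0.38, 0.046). Calls of OT-1 against F5 in mature cells then split into 2 higher and 2 lower, against 2 and 1. Quantile normalization called Itgal in late cells lower in OT-1 than in TG6 (−0.42, 0.0031) and F5 (−0.45, 0.00041), and Itgb2 lower in OT-1 than in F5 (−0.45, 0.021), so that OT-1 against F5 in late cells split into 3 higher and 5 lower, against 3 and 3. TG6 late has 2 libraries, so its contrasts have the widest standard errors, and Itgae below 50 normalized counts rests on few reads.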
